A study of Mus musculus with 9 samples.

Results

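The intergenic long non-coding RNAs (lncRNAs) of β-TC6 cells that the authors' table does not mark as known were described as a class, by their structure, their place in the genome, their levels and their response to a pair of saturated fatty acids. Members were the transcripts that the table types as intergenic without that mark, and transcripts of 1 gene identifier were summed into a locus. The rule leaves out 5 loci, and 6767 transcripts at 4590 loci remained of 15589 lncRNA transcripts at 9635 loci in all. The known intergenic class of the same table, which serves for comparison, holds 3501 transcripts at 2026 loci.

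The cells come from an insulin-secreting tumour line (insulinoma) of transgenic mice. Palmitic acid and stearic acid, whose chain is longer, were each given at 400 µmol/L for 24 h in the presence of 1.3% bovine serum albumin, with 3 libraries per acid, and the 3 control libraries are labelled untreated. No label says whether the controls had albumin too, so albumin and fatty acid cannot be told apart in a comparison with control. The labels do not say whether libraries of a group came from separate cultures, and p-values measure only the spread between these libraries.

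An intergenic lncRNA is transcribed from its own locus between protein-coding genes and is usually spliced, capped and polyadenylated, but it encodes no protein. Such RNAs are known for low, cell-type-restricted expression, and some act on nearby genes while others act through the proteins or microRNAs they bind. Annotated catalogues miss many of them, so an assembly of reads from 1 cell type commonly adds loci that no catalogue holds.

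That a locus is not marked as known does not mean that it lacks an annotation. Of the 4590 loci, 1088 carried an Ensembl gene identifier in the table and 3502 (76.3%) carried none. GENCODE M21, the mouse annotation on the same assembly (GRCm38, also called mm10), has a gene on the same strand at 561 of the 3502. No M21 gene on either strand overlapped 2752 loci (59.96%). A protein-coding gene overlapped 104 loci on the same strand and 214 on either strand, which goes against the word intergenic for these loci. Coding transcripts are not in the table, so the cells' identity could not be checked against the levels of hormone genes.

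The promoters of a pair of loci that increased with both acids and have a start site in RefSeq are shown, since they place these loci beside annotated genes. Each window runs from 250 bases before to 50 bases after the RefSeq start on GRCm38.p6, on the gene's strand, 5′ to 3′. Capitals mark matches on either strand to TATAAA (the TATA box) or GGGCGG (the GC box). The first window, chr5:52216384-52216683 on the minus strand, belongs to C130083M11Rik, whose start lies 1 base from the 5′ end of a transcript of XLOC_116356. The second, chr6:121137237-121137536 on the plus strand, belongs to Gm30842, whose start lies 10 bases from the 5′ end of a transcript of XLOC_125046.

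C130083M11Rik: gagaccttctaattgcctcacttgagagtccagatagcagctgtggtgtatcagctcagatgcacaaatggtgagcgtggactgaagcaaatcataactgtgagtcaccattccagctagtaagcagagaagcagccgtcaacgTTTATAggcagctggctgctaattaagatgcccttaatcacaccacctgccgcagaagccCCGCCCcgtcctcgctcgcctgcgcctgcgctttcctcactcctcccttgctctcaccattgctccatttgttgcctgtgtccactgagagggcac

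Gm30842: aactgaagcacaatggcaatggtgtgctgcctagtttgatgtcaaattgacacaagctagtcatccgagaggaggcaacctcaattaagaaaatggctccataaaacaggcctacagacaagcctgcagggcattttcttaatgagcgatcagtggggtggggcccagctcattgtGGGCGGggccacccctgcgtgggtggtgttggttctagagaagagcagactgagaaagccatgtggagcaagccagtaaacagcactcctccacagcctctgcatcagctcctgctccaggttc

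The C130083M11Rik window holds 10 CpG dinucleotides, 1 match to TATAAA and 1 to GGGCGG. The Gm30842 window holds 4 CpG dinucleotides and 1 match to GGGCGG. Of all loci in the class, 397 have a 5′ end within 50 bases of a RefSeq start. Their windows hold a median of 8 CpG dinucleotides, against 7 over all 32851 RefSeq windows of the same length. TATAAA occurs in 10.3% of the 397 windows and in 13.6% of all windows, CCAAT in 40.6% and 37.4%, and GGGCGG in 37.3% and 35.7%. A match is a description of letters and not a site shown to be bound.

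The loci were simple in structure. A single transcript was listed at 3543 loci (77.2%), 2 or 3 at 814, and 4 or more at 233. Transcripts of 2 exons numbered 4088 (60.4%), those of 3 exons 1596, and those of 4 or more 1083 (16.0%), with a maximum of 13 and no transcript of 1 exon. Known intergenic transcripts had 2 exons in 32.6% and 4 or more in 35.96%, and 60.7% of known loci had a single transcript. The known class includes 370 loci of the Y chromosome, and without these its shares are 39.5% with 2 exons, 31.3% with 4 or more and 68.7% of loci with 1 transcript. Exon and transcript numbers therefore differ between the classes in the same direction with and without the Y chromosome. No test was run over loci, which come from 1 assembly.

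**Figure D1:**
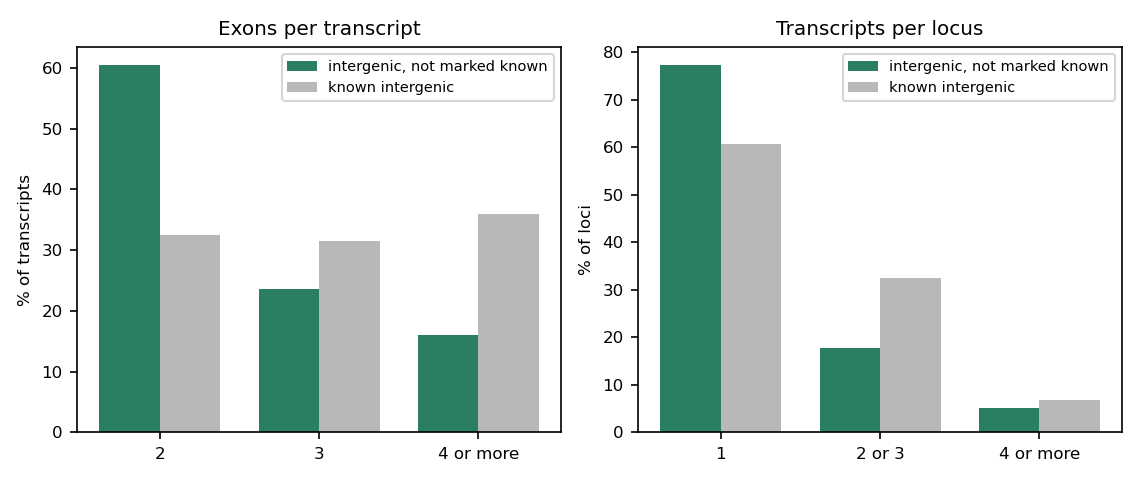
Share of transcripts by exon number (left, % of transcripts) and share of loci by transcript number (right, % of loci) in the intergenic class not marked as known (green) and the known intergenic class (grey). Transcripts of 2 exons make 60.4% of the class not marked as known and 32.6% of the known class.

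Loci of the class spanned a median of 4.86 kb (quartiles 2.13 and 12.4 kb), against 5.42 kb in the known class (7.56 kb without the Y chromosome). The shortest spanned 279 bases and 71 spanned over 100 kb. The longest locus, XLOC_093670 at Sox2ot (576 kb), runs over the coding gene Sox2, a factor of stem cells and neural progenitors, and was listed at 0 counts in all but 1 library. The plus strand holds 2314 loci and the minus strand 2276.

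The most branched loci were XLOC_161536 on chromosome X with 21 transcripts, XLOC_114592 on chromosome 5 with 20 and XLOC_029465 on chromosome 12 with 18. XLOC_161536 (5530601H04Rik) also has up to 12 exons, XLOC_135570 upstream of Snrpn, an imprinted splicing-factor gene, has up to 13, and XLOC_116786 (Gm38413) up to 13. Having many transcripts did not mean that they were used evenly. At the 578 loci with 2 or more transcripts and at least 30 counts over the control libraries, the top transcript held a median of 69% of the control counts, and at 144 loci it held over 90%.

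Along the chromosomes the loci were unevenly placed. Chromosome 5 holds 403, chromosome 3 holds 323 and chromosome 2 holds 314, while the Y chromosome holds 6. Per 100 coding genes of GENCODE M21 there were 33.1 loci on chromosome 18, 32.2 on chromosome 3 and 32 on chromosome 5, against 12.7 on chromosome 7 and 3.28 on the Y chromosome.

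The median gap between adjacent loci was 222.1 kb, yet 1117 adjacent pairs lay within 50 kb of each other, 574 of them on the same strand. Joining neighbours at gaps up to 50 kb gave 767 clusters that hold 1898 loci (41.35%), against 30.11% of known intergenic loci. Such a share rises with the number of loci, 4590 here and 2026 in the known class. No correction was made, so the shares do not show that either class clusters more. Joining at gaps up to 10 kb placed 22.18% in clusters, and at gaps up to 100 kb 55.16%. The largest cluster at 50 kb has 13 loci at chrX:11345494-11630058, the next 9 loci at chr14:24941694-25282275, and 3 clusters have 8 loci, of which the one with most tested loci lies at chr19:44591328-44751236. None of these 3 intervals holds a coding gene of M21.

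Many loci of these clusters had too few counts to test. In the chromosome X cluster, 8 of 13 loci were tested, and XLOC_159249 of this cluster had 274, 243 and 258 CPM (counts scaled by library depth) in the palmitic acid libraries, 252, 238 and 206 in the stearic acid libraries and 315, 307 and 254 in the control libraries. None of the 8 was called with either acid by edgeR or DESeq2, and at an unadjusted edgeR p under 0.05 there was 1 with stearic acid and 0 with palmitic acid. In the chromosome 14 cluster, 5 of 9 were tested, and the counts by both tools and at an unadjusted p were the same. In the chromosome 19 cluster, which ends 4809 bases upstream of Pax2 (a kidney and neural transcription factor), 5 of 8 were tested.

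XLOC_078810 of this cluster had 123, 167 and 130 CPM in the palmitic acid libraries, 165, 136 and 179 in the stearic acid libraries and 116, 98.4 and 76.6 in the control libraries. It was called higher with stearic acid (log2 fold change 0.73 ± 0.18 SE, edgeR adjusted p = 0.0124) and not with palmitic acid (0.53 ± 0.18, edgeR adjusted p = 0.0971). The stearic acid call is lost without control replicate 3 or stearic acid replicate 3 (largest edgeR adjusted p 0.0792). XLOC_079469 overlaps it on the opposite strand. Since the strand setting of the counting is not given, it is not known whether reads of such a pair were kept apart.

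Relative to coding genes the leading arrangement was divergent. Of 4376 loci that overlap no coding gene, 803 lay within 1 kb of one, and 578 of these were divergent, with the locus and the gene pointing away from each other. A further 87 lay upstream on the same strand, 71 were convergent and 67 lay downstream on the same strand. Within 10 kb there were 1617 loci, 832 of them divergent. The median distance to the nearest coding gene was 19.6 kb, and 1055 loci lay over 100 kb away.

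**Figure D2:**
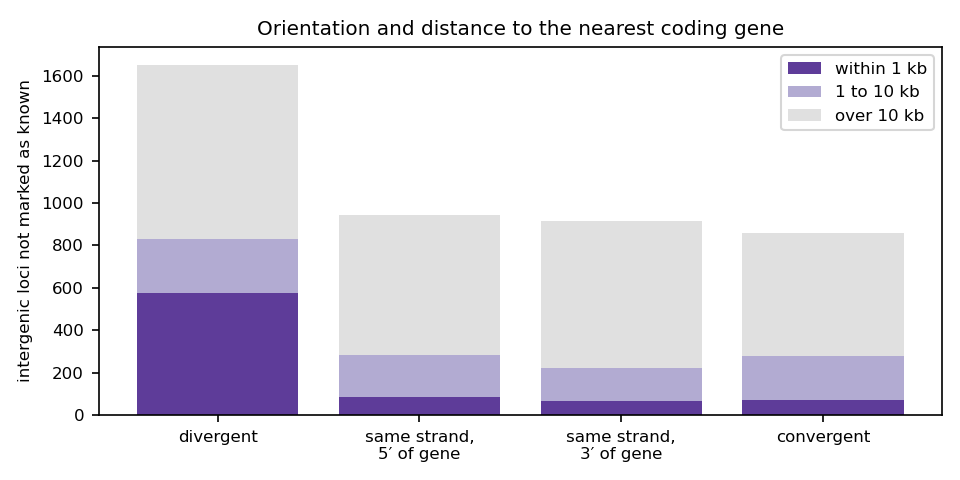
Number of intergenic loci not marked as known by orientation to the nearest coding gene of GENCODE M21, stacked by distance (within 1 kb, 1 to 10 kb, over 10 kb). The divergent bar holds 578 of the 803 loci within 1 kb.

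Detection and level were set beside those of the known class. Loci not marked as known can enter such a table because reads of these cells were assembled there, and catalogued loci without any read, so the difference in detection and level can follow from how the classes are made and was not tested. Between 2343 and 2637 loci had a count above 0 in a library (51.0% to 57.5%), against 24.3% to 28.5% of known intergenic loci and 29.8% to 34.8% of known loci off the Y chromosome. Of the 4590 loci, 1656 (36.1%) were detected in all 9 libraries and 592 (12.9%) in none, against 16.5% and 55.9% of known loci. Without the Y chromosome the known class had 20.2% in all 9 libraries and 46.1% in none. Per length, the median level over detected loci was 5.36 to 7.29 FPKM (fragments scaled by transcript length and library depth) by library, against 3.92 to 6.09 FPKM in the known class, and it was higher in each of the 9 libraries. Without the Y chromosome the known class had the same range, 3.92 to 6.09 FPKM. The lengths behind the deposited FPKM are not stated, and 1 locus of the class exceeds 1000000 FPKM, which needs a length far under 1 kb, so FPKM of short transcripts is uncertain.

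Counts were concentrated in few loci. Between 905 and 961 loci reached 10 CPM in a library and 55 to 64 reached 1000 CPM. The 10 loci with most counts held 55.6% to 65.0% of the class's counts in a library, and 66 to 86 loci held 90%. Of those 10 loci, chosen on their counts over all libraries, 8 have 1 transcript, 6 have no Ensembl identifier and 2 overlap a small RNA gene of M21.

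XLOC_124611 on chromosome 6 (chr6:69457559-69593908, plus strand) alone took 17.0% to 30.1% of all lncRNA counts in a library. It spans immunoglobulin kappa variable segments and Rn7s6, a copy of the 7S RNA of the signal recognition particle, and its counts may not be told apart from those of the other copies. Its deposited level was 8129970 FPKM (group median) with palmitic acid, 8075590 with stearic acid and 8110910 in control, so any sum of FPKM rests mostly on this locus. XLOC_030370 on chromosome 12 spans small nuclear RNA genes (Gm25679, Gm24305, Gm22317) and had 18389, 19052 and 13476 CPM in the palmitic acid libraries, 9890, 13702 and 16214 in the stearic acid libraries and 13322, 22532 and 26937 in the control libraries. The groups overlap, and neither acid passed the test (edgeR adjusted p = 0.475 for palmitic acid and 0.0514 for stearic acid).

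Other loci with many counts differed in their spread between libraries. XLOC_012238 on chromosome 10, 32006 bases from Eea1, an early endosome tether, had 26413, 28979 and 41407 CPM in the palmitic acid libraries, 36031, 19990 and 33905 in the stearic acid libraries and 26730, 22256 and 27195 in the control libraries. Its groups overlapped. XLOC_065690 on chromosome 17 had 23920, 24112 and 23915 CPM in the palmitic acid libraries, 21570, 18471 and 22393 in the stearic acid libraries and 21410, 21381 and 20633 in the control libraries. XLOC_011990, downstream of Aire (a regulator of thymic self-antigen expression) and convergent with it, ranged from 18390 to 19222 CPM with palmitic acid, from 16637 to 18740 with stearic acid and from 16845 to 18771 in control. None of these 3 loci passed the test with either acid (smallest edgeR adjusted p 0.334).

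Between groups, the class's share of all lncRNA counts passed no test. It took 66.3% ± 0.716 of them in the palmitic acid libraries, 66.5% ± 1.22 in the stearic acid libraries and 65.35% ± 0.606 in the control libraries (SD, n = 3 each). The difference from control was 0.925 percentage points for palmitic acid (exact permutation test, two-sided, p = 0.2) and 1.13 points for stearic acid (exact p = 0.3). Stearic and palmitic acid differed by 0.208 points (exact p = 0.9). Without the most abundant transcript, which lies at XLOC_124611, the share was 57.8% ± 0.172 with palmitic acid, 57.05% ± 2.14 with stearic acid and 55.35% ± 1.6 in control (SD, n = 3 each), and the difference between palmitic acid and control was 2.45 points (exact p = 0.1). The smallest p that 3 against 3 libraries allow is 0.1.

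For tests per locus, 1568 of the 4590 loci (34.2%) passed the filter on low counts. A further 2430 had counts but too few to test, and 592 had none. A locus was called at an adjusted p under 0.05 from edgeR's quasi-likelihood test, adjusted by Benjamini-Hochberg over all 3129 lncRNA features tested. Levels below are CPM of the TMM-scaled library, and they compare libraries within a locus. In such bulk libraries, fewer cells that hold an RNA and less RNA per cell cannot be told apart.

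The 9 libraries hold 1537431 to 2870275 lncRNA counts, so 3 counts correspond to 1.10 to 2.01 CPM. On the first principal component of the tested loci (32.2% of variance) the control libraries lay between -17.9 and -16.9 and the acid libraries between 5.30 and 12.5. Stearic acid replicate 2, the shallowest library, stood apart on the second (-20.9, the others between -3.82 and 10.4).

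Palmitic acid changed 90 of the 1568 loci, 60 higher and 30 lower than control. This is 5.74% of the class, beside 4.99% of all lncRNA features tested, so the share is near the background. In each direction, 3.26% of all features were higher and 1.73% lower. The median log2 fold change was 0.04 over the tested loci and -0.02 over all features, and quartiles of the class lay at -0.32 and 0.36. Of the called loci, 31 were over 2-fold higher and 16 over 2-fold lower. Scaling by library size alone called 36 higher and 30 lower. Leaving out 1 library of the comparison called between 44 loci (control replicate 1) and 53 (palmitic acid replicate 3), with 45 without control replicate 2, 46 without control replicate 3, 52 without palmitic acid replicate 1 and 45 without palmitic acid replicate 2. Without stearic acid replicate 2, which enters the shared estimate of spread, 131 loci were called.

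Stearic acid changed 170 loci, 93 higher and 77 lower than control. This is 10.8% of the class, beside 10.2% of all features (5.56% higher and 4.6% lower), so this share too is near the background. The median log2 fold change was 0.05 over the tested loci and 0.00 over all features (-0.00034 before rounding), and quartiles of the class lay at -0.36 and 0.41. Of the called loci, 60 were over 2-fold higher and 46 over 2-fold lower. Leaving out control replicate 2 lowered the count to 108, and the other single libraries of the comparison left between 115 and 166.

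**Figure D3:**
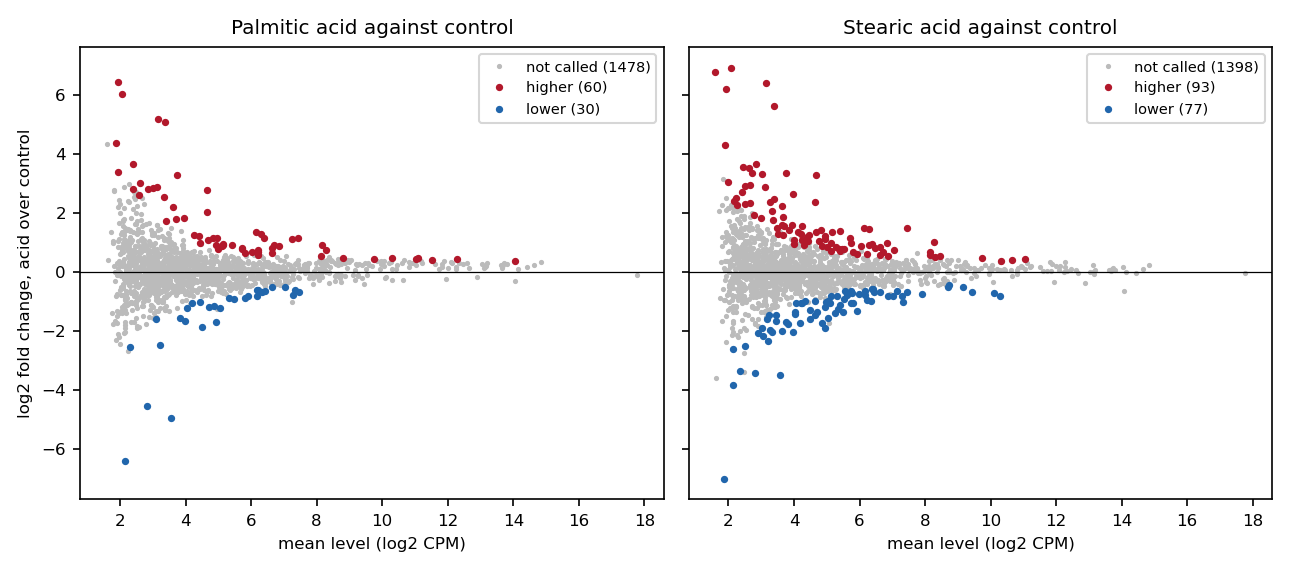
Log2 fold change of each tested locus of the class against its mean level (log2 CPM) for palmitic acid over control (left) and stearic acid over control (right), red where called higher, blue where called lower and grey where not called. Palmitic acid has 60 higher and 30 lower loci and stearic acid 93 and 77, and fold changes are widest at low levels, where a group can be at 0.

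Between the acids themselves, stearic against palmitic acid, 0 loci of the class were called by edgeR, beside 0.0959% of all features (0.0639% higher and 0.032% lower). At an unadjusted p under 0.05 there were 117, and the DESeq2 Wald test called 2. Quartiles of the log2 difference lay at -0.25 and 0.25. This does not show that the acids act alike, and intervals of the difference are given below for single loci.

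Among the called loci of higher level, those with the largest increases lay at varied distances from coding genes. XLOC_116356 (C130083M11Rik, 7 transcripts of up to 8 exons), 7469 bases upstream of Dhx15, an RNA helicase of the spliceosome, had 186, 167 and 218 CPM in the palmitic acid libraries, 249, 220 and 254 in the stearic acid libraries and 94.5, 83.8 and 80.3 in the control libraries. XLOC_114524 overlaps it on the opposite strand. All acid libraries lay above all control libraries, and the log2 fold changes were 1.144 ± 0.15 for palmitic acid (edgeR adjusted p = 7.67e-05) and 1.48 ± 0.15 for stearic acid (edgeR adjusted p = 2.36e-06).

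XLOC_134192 at chr7:133608063-133617949, 5905 bases from Tex36 and divergent from it, overlaps the M21 lncRNA gene Gm45671. It had 81.8, 85.4 and 84.6 CPM with palmitic acid, 79.9, 90.4 and 106 with stearic acid and 36.8, 27.3 and 34.6 in control. All acid libraries lay above all control libraries, while the acids overlapped each other, and log2 fold changes were 1.35 ± 0.17 for palmitic acid (edgeR adjusted p = 7.67e-05) and 1.48 ± 0.18 for stearic acid (edgeR adjusted p = 2.01e-05). The difference between stearic and palmitic acid was 0.14 (95% interval -0.21 to 0.48).

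XLOC_045853 on chromosome 14, over 100 kb from a coding gene, had 86.9, 96.1 and 91.8 CPM with palmitic acid, 142, 72.3 and 98.4 with stearic acid and 38.8, 32.6 and 41.6 in control. It was higher with palmitic acid (log2 fold change 1.28 ± 0.21, edgeR adjusted p = 0.000882) and with stearic acid (1.47 ± 0.21, edgeR adjusted p = 0.000144). Every acid library lay above every control library, and the stearic acid libraries spread most.

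XLOC_066512 on chromosome 17, 949941 bases from the nearest coding gene, had 306, 347 and 429 CPM with palmitic acid, 315, 263 and 330 with stearic acid and 190, 180 and 199.6 in control. Both acids were called (log2 fold change 0.92 ± 0.15, edgeR adjusted p = 0.000686 for palmitic acid, and 0.67 ± 0.15, edgeR adjusted p = 0.00631 for stearic acid). XLOC_125046 (Gm30842 in RefSeq), 6461 bases from Mical3, a monooxygenase that acts on actin, had 35.6, 43.1 and 32.7 CPM with palmitic acid, 42.3, 63.6 and 40.7 with stearic acid and 20.8, 18.5 and 17.8 in control. Its stearic acid call (log2 fold change 1.34 ± 0.23, edgeR adjusted p = 0.000863) held without each library in turn. Its palmitic acid call (0.96 ± 0.23, edgeR adjusted p = 0.0179) is lost without control replicate 2 or 3 or palmitic acid replicate 2 (largest edgeR adjusted p 0.0887).

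XLOC_060699 on chromosome 16 had 47.7, 35.8 and 43.4 CPM with palmitic acid, 52.8, 61.6 and 64.6 with stearic acid and 20.4, 26.3 and 21.2 in control. The increase was 1.40 ± 0.20 on the log2 scale with stearic acid (edgeR adjusted p = 0.000142) and 0.90 ± 0.20 with palmitic acid (edgeR adjusted p = 0.0114). The palmitic acid call is lost without control replicate 1 or 3 or palmitic acid replicate 1 (largest edgeR adjusted p 0.0623). The difference of stearic from palmitic acid, 0.50 (95% interval 0.10 to 0.89), did not pass adjustment (edgeR adjusted p = 0.586).

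A gain from near 0 marked several loci of low counts. XLOC_003054 (chr1:119104711-119123658, minus strand), 51092 bases upstream of Gli2, a transcription factor of hedgehog signalling, had 16.1, 12.2 and 25.1 CPM with palmitic acid, 14.7, 20.8 and 19.3 with stearic acid and 0.969, 1.95 and 2.23 in control. Its log2 fold changes were 3.30 ± 0.45 for palmitic acid (edgeR adjusted p = 0.000121) and 3.34 ± 0.45 for stearic acid (edgeR adjusted p = 8.11e-05). XLOC_001120, named after its values were seen because it overlaps XLOC_003054 on the opposite strand, was also higher with palmitic acid (2.87, edgeR adjusted p = 0.00353) and with stearic acid (2.88, edgeR adjusted p = 0.00207). Whether reads of this pair were kept apart is not known, so it may count as 1 signal. Over the control libraries XLOC_003054 had 12 counts and XLOC_001120 had 10. Both passed the filter on low counts through the acid groups, so their calls are tied to that selection.

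The pair beside Cd82, a tetraspanin membrane protein, also rose with both acids. XLOC_083625 averaged 28.7 ± 6.0 CPM with palmitic acid, 40.1 ± 9.8 with stearic acid and 4.23 ± 1.4 in control, and XLOC_083627 11.7 ± 3.2, 17.1 ± 2.1 and 0.286 ± 0.25 CPM (SD, n = 3 each). The edgeR adjusted p was 3.54e-05 for palmitic acid and 2.36e-06 for stearic acid at XLOC_083625, and 6.52e-05 and 8.70e-06 at XLOC_083627. Over the control libraries XLOC_083625 had 28 counts and XLOC_083627 had 2. These loci too passed the filter on low counts through the acid groups, so their calls are tied to that selection.

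Some called loci had a whole group at 0 counts, 3 in the palmitic acid comparison and 4 in that of stearic acid, and these were named after their values were seen. They passed the filter on low counts only through the groups where they had counts, so their calls are tied to that selection. Their folds are set against 3 counts over the group at 0, and "at least" covers counting error only. The spread between libraries is not included, and the true folds can be smaller. XLOC_001541, 27669 bases from Fasl (a death-receptor ligand), was at 0 in all control libraries and at least 10.6-fold higher with palmitic acid and at least 8.72-fold higher with stearic acid. XLOC_060268, 33885 bases from Cldn5 (a tight-junction protein), was likewise at 0 in control, and at least 8.09-fold higher with palmitic acid and at least 14.9-fold higher with stearic acid. XLOC_038967, 95356 bases from Isl1 (an islet transcription factor), was at 0 in control, called higher with stearic acid (at least 13.7-fold) and not called with palmitic acid (edgeR adjusted p = 0.187).

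At 0 in an acid group were XLOC_142921 with palmitic acid (at least 11.6-fold lower) and XLOC_144451 with stearic acid (at least 14-fold lower), both on chromosome 8. XLOC_144451 overlaps the coding gene Mast3 on the same strand, so its reads cannot be told apart from those of Mast3. XLOC_142921 had 0, 0 and 0 CPM with palmitic acid, 4.76, 7.37 and 7.82 with stearic acid and 5.33, 0 and 8.18 in control. A control library thus also stood at 0, which overlaps the palmitic acid group.

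Among called loci at or above the median level of the called loci, XLOC_136219 (chr7:121586737-121641663, minus strand) had the largest decrease with stearic acid, while loci of lower level fell further. It lies 358 bases downstream of Usp31, a ubiquitin peptidase gene, and overlaps the M21 lncRNA gene 4933432K03Rik. It had 20.2, 17.5 and 14.5 CPM with palmitic acid, 11.4, 14.7 and 18.9 with stearic acid and 55.7, 52.6 and 60.2 in control. All acid libraries were below 21 CPM and all control libraries above 52 CPM. The log2 fold change was -1.69 ± 0.23 for palmitic acid (edgeR adjusted p = 0.000121) and -1.89 ± 0.24 for stearic acid (edgeR adjusted p = 3.68e-05). The difference between stearic and palmitic acid was -0.20 (95% interval -0.73 to 0.32).

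XLOC_114971 (Gm2861) had 24.9, 19.8 and 19.98 CPM with palmitic acid, 12.4, 18.1 and 13.6 with stearic acid and 38.3, 45.3 and 59.5 in control. The groups of each acid and control did not overlap, and the log2 fold change was -1.15 ± 0.23 for palmitic acid (edgeR adjusted p = 0.00718, lost at 0.0714 without control replicate 3) and -1.72 ± 0.25 for stearic acid (edgeR adjusted p = 0.000188).

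XLOC_152926, with 8 transcripts, overlapped by XLOC_151677 on the opposite strand, and 6290 bases from Gclc, the catalytic subunit of the first enzyme of glutathione synthesis, is convergent with that gene. It had 23.5, 17.2 and 29.3 CPM with palmitic acid, 16.6, 12.7 and 25.1 with stearic acid and 70.3, 46.3 and 48.0 in control. It was lower with palmitic acid (log2 fold change -1.23 ± 0.26, edgeR adjusted p = 0.00919) and with stearic acid (-1.56 ± 0.27, edgeR adjusted p = 0.00111). The palmitic acid call is lost without control replicate 1 or palmitic acid replicate 2 (largest edgeR adjusted p 0.0695).

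XLOC_060257 near Rtn4r, a receptor of the axon growth inhibitor Nogo, and XLOC_135062 near Kctd15 were called lower with stearic acid and not with palmitic acid. XLOC_060257 had 34.8, 32.03 and 32.3 CPM with palmitic acid, 24.7, 29.5 and 11.5 with stearic acid and 56.2, 55.0 and 55.4 in control. Its log2 fold change was -1.38 ± 0.25 for stearic acid (edgeR adjusted p = 0.0016) and -0.75 ± 0.24 for palmitic acid (edgeR adjusted p = 0.0809). The acids overlapped neither each other nor control at this locus, but the difference of stearic from palmitic acid did not pass (edgeR adjusted p = 0.593). XLOC_135062 changed by -1.26 ± 0.23 with stearic acid (edgeR adjusted p = 0.00129) and by -0.63 ± 0.21 with palmitic acid (edgeR adjusted p = 0.106). XLOC_133144, which overlaps it on the opposite strand, was called lower with palmitic acid (-4.95, edgeR adjusted p = 0.00302) and with stearic acid (-3.50, edgeR adjusted p = 0.0111). XLOC_133144 passed the filter on low counts through the control group. Whether reads of this pair were kept apart is not known.

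**Figure D4:**
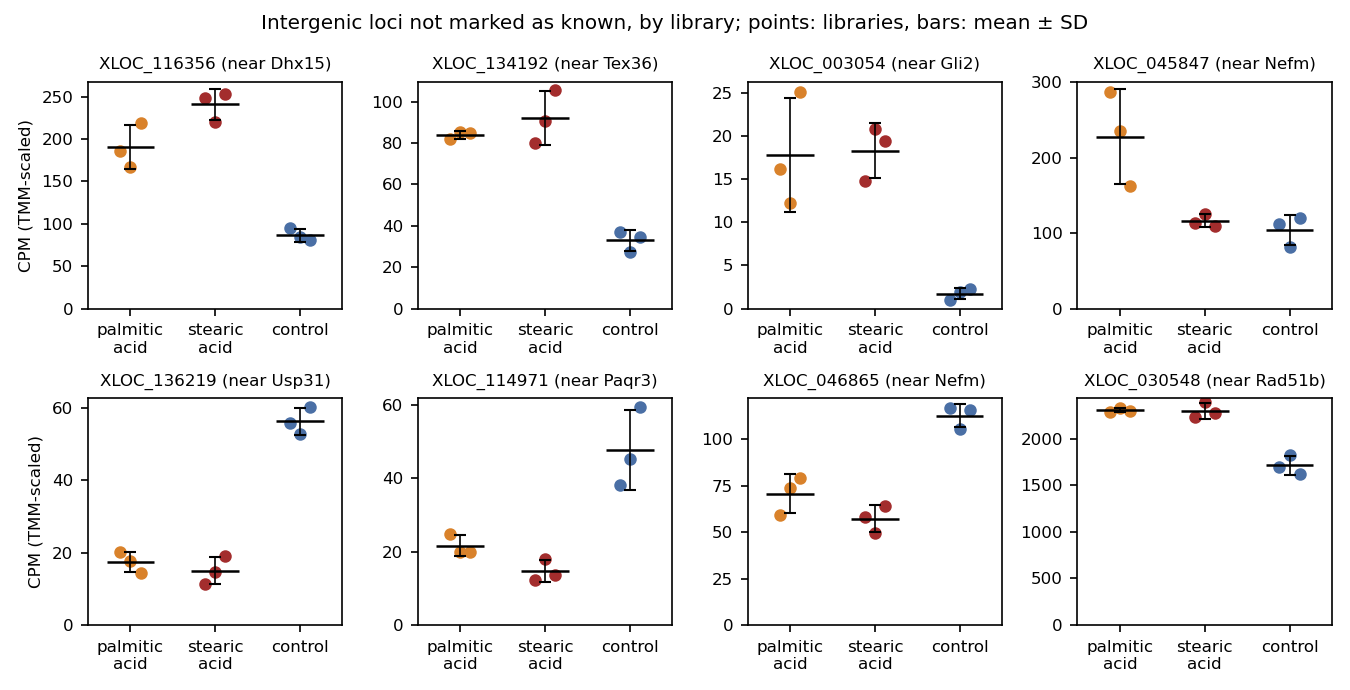
CPM of 8 named loci in the palmitic acid, stearic acid and control libraries (points: libraries, horizontal lines: means, error bars: SD, n = 3). XLOC_116356, XLOC_134192 and XLOC_003054 are higher with both acids, XLOC_136219, XLOC_114971 and XLOC_046865 are lower with both, and XLOC_045847 is higher with palmitic acid only.

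A cluster of 7 loci, 6 of them tested, spans Nefm and Nefl, the genes of the medium and light neurofilament chains. Palmitic acid called 1 of the 6 higher and 1 lower, and stearic acid called 2 lower, XLOC_046865 and XLOC_046863. Over all lncRNA features tested, palmitic acid called 4.99% and stearic acid 10.2%. The 6 loci are too few to tell their shares from these, and XLOC_045847 and XLOC_046865 were named for their changes. XLOC_045847 (chr14:68124937-68131681, plus strand, 7 transcripts) starts 91 bases from Nefm and is divergent from it. It had 286, 235 and 162 CPM with palmitic acid, 113, 126 and 110 with stearic acid and 111, 81.8 and 119 in control. The palmitic acid libraries lay above all others, whereas the stearic acid and control libraries overlapped.

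XLOC_045847 was higher with palmitic acid (log2 fold change 1.13 ± 0.19, edgeR adjusted p = 0.00127) and not called with stearic acid (0.15 ± 0.19, edgeR adjusted p = 0.709). Its difference of stearic from palmitic acid, -0.98 (95% interval -1.38 to -0.58), had the smallest p of the class in that comparison and just missed the threshold (edgeR adjusted p = 0.0547). XLOC_046865, which lies 3.67 kb further on the minus strand, had 59.0, 74.0 and 79.1 CPM with palmitic acid, 58.0, 49.6 and 64.2 with stearic acid and 117, 106 and 116 in control. It was lower with palmitic acid (-0.67 ± 0.16, edgeR adjusted p = 0.0185) and with stearic acid (-0.97 ± 0.17, edgeR adjusted p = 0.000863), and the palmitic acid call is lost without any 1 of 5 libraries (largest edgeR adjusted p 0.117).

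Pairs of adjacent loci were counted by their calls. Of 197 adjacent pairs within 50 kb with both loci tested, palmitic acid left both called in 3 pairs and 1 of the pair in 16. Stearic acid left both called in 7 pairs and 1 of the pair in 37. Of the 3 palmitic acid pairs, XLOC_003054 with XLOC_001120 moved in the same direction, while the Nefm pair and XLOC_085620 with XLOC_083625 near Cd82 moved in opposite directions.

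XLOC_085620, named after its values were seen, had 0.367, 0.763 and 0.850 CPM with palmitic acid, 2.38, 1.34 and 0.823 with stearic acid and 6.30, 27.8 and 15.6 in control. It was lower with palmitic acid (log2 fold change -4.56 ± 0.70, edgeR adjusted p = 0.000533) and with stearic acid (-3.41 ± 0.65, edgeR adjusted p = 0.00202), while XLOC_083625, 23.8 kb away, was higher with both. XLOC_085620 had 5 counts over the palmitic acid libraries and 9 over the stearic acid libraries. It passed the filter on low counts through the control group, so its calls are tied to that selection. With stearic acid, XLOC_085620 with XLOC_083625 was the 1 pair of the 7 in opposite directions, and the other 6 pairs moved in the same direction. In 4 of these 6 the loci overlap on opposite strands (XLOC_003054 with XLOC_001120, XLOC_133144 with XLOC_135062, XLOC_144021 with XLOC_142903, XLOC_143703 with XLOC_144709). Whether reads of these pairs were kept apart is not known.

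Loci of the most transcripts split in direction. XLOC_114592, with 20 transcripts over 219 kb, lies downstream of Pcdh7 (a protocadherin gene) and had 133, 124 and 133 CPM with palmitic acid, 151, 117 and 151 with stearic acid and 74.6, 64.3 and 75.1 in control. It was higher with palmitic acid (log2 fold change 0.86 ± 0.15, edgeR adjusted p = 0.00188) and with stearic acid (0.97 ± 0.15, edgeR adjusted p = 0.000459). XLOC_029465, with 18 transcripts, had 149.6, 154 and 137 CPM with palmitic acid, 164, 97.1 and 177 with stearic acid and 241, 206 and 250.2 in control.

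XLOC_029465 was lower with palmitic acid (-0.66 ± 0.18, edgeR adjusted p = 0.0381) and with stearic acid (-0.67 ± 0.18, edgeR adjusted p = 0.0227). The palmitic acid call is lost without any 1 of the 6 libraries (largest edgeR adjusted p 0.148), and the stearic acid call without control replicate 1 or 3 or stearic acid replicate 2 (0.0849). XLOC_161536, with 21 transcripts, had 115, 122 and 133 CPM with palmitic acid, 156, 117 and 147 with stearic acid and 134, 122 and 106 in control, and passed with neither acid (edgeR adjusted p = 0.926 and 0.421).

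The called loci named for their high level changed by less than 2-fold. XLOC_030548, which overlaps Rad51b, a gene of recombination repair, on the opposite strand, had 2293, 2335 and 2298 CPM with palmitic acid, 2232, 2400 and 2276 with stearic acid and 1697, 1823 and 1627 in control. Its log2 fold changes were 0.43 ± 0.11 for palmitic acid (edgeR adjusted p = 0.0229) and 0.42 ± 0.11 for stearic acid (edgeR adjusted p = 0.0146). The palmitic acid call did not hold when scaled by library size alone or without any 1 of 5 libraries (largest edgeR adjusted p 0.11), and the stearic acid call did not hold without control replicate 1 or 3 (0.0828).

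XLOC_153413 (A730085K08Rik), convergent with the lipase cofactor gene Abhd5, had 18413, 18766 and 20263 CPM with palmitic acid, 17603, 14610 and 17470 with stearic acid and 14936, 14817 and 14595 in control. It passed only just with palmitic acid (log2 fold change 0.37 ± 0.11, edgeR adjusted p = 0.0481) and not with stearic acid (edgeR adjusted p = 0.375). The palmitic acid call is lost without any 1 of the 6 libraries (largest edgeR adjusted p 0.146), without stearic acid replicate 3 and when scaled by library size alone. XLOC_152788, which spans the U5 small nuclear RNA gene Rnu5g, had 1360, 1099 and 1101 CPM with palmitic acid, 808, 557 and 1033 with stearic acid and 996, 1412 and 1553 in control. It was lower with stearic acid (-0.72 ± 0.19, edgeR adjusted p = 0.0199), although the stearic acid and control libraries overlapped, and the call is lost without control replicate 2 or 3 or stearic acid replicate 2 (0.0972). XLOC_002656 (D230017M19Rik) was also lower with stearic acid (-0.82 ± 0.19, edgeR adjusted p = 0.00874). Its levels were 697, 849 and 1123 CPM with stearic acid and 1045, 1750 and 1916 in control, which overlap. This call is lost without control replicate 2 or 3 (largest edgeR adjusted p 0.0606). Palmitic acid did not pass at XLOC_002656 (edgeR adjusted p = 0.483), and XLOC_000624 overlaps it on the opposite strand.

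Among the chromosomes, chromosome 8 held the most decreases. With stearic acid, 15 of its 89 tested loci were lower and 5 higher (22.5% called), against 62 lower and 88 higher of 1479 on the other chromosomes. Lower loci were thus 16.9% of those tested on chromosome 8 and 4.19% of those elsewhere. Other lncRNA features of chromosome 8 had 4 lower and 4 higher of 78. The median log2 fold change of all 89 loci was 0.06, and was 0.05 on the other chromosomes. With palmitic acid, 6 of the 89 were lower (6.74%) and 1 higher. On the other chromosomes 24 of 1479 were lower (1.62%) and 59 higher with this acid. Other lncRNA features of chromosome 8 had 3 lower and 1 higher of 78 with it. At an edgeR adjusted p under 0.01, 5 of the 15 lower loci remained with stearic acid and 0 of the 6 with palmitic acid. On the other chromosomes 34 of 62 remained with stearic acid and 8 of 24 with palmitic acid. No test over loci was run.

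The 15 loci lie between 10.6 and 127 Mb. Of the 15, 6 belong to the set that overlaps another locus of the class on the opposite strand. Coding genes are overlapped by XLOC_144451 (Mast3, same strand) and XLOC_143215 (Eri1, opposite strand). XLOC_143609, which carries the Ensembl identifier of Gm27168 in the table, lies 35886 bases from N4bp1. XLOC_144632 overlaps it on the opposite strand, and whether their reads were kept apart is not known. XLOC_143609 had 50.6, 52.6 and 51.9 CPM with palmitic acid, 34.2, 27.5 and 45.7 with stearic acid and 84.3, 113 and 76.2 in control. It was lower with palmitic acid (log2 fold change -0.81 ± 0.19, edgeR adjusted p = 0.0185, lost without any 1 of 4 libraries, largest 0.132) and with stearic acid (-1.32 ± 0.20, edgeR adjusted p = 0.000346).

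XLOC_144685, an example chosen after its values were seen, has 16 transcripts and lies 95289 bases from Gnao1, a G-protein subunit gene of neurons and endocrine cells. It had 111, 121 and 128 CPM with palmitic acid, 96.0, 98.5 and 99.2 with stearic acid and 165, 181 and 167 in control. The stearic acid libraries lay lowest, and the log2 fold change was -0.80 ± 0.14 for stearic acid (edgeR adjusted p = 0.000891) and -0.51 ± 0.14 for palmitic acid (edgeR adjusted p = 0.0323). XLOC_143658 overlaps it on the opposite strand.

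**Figure D5:**
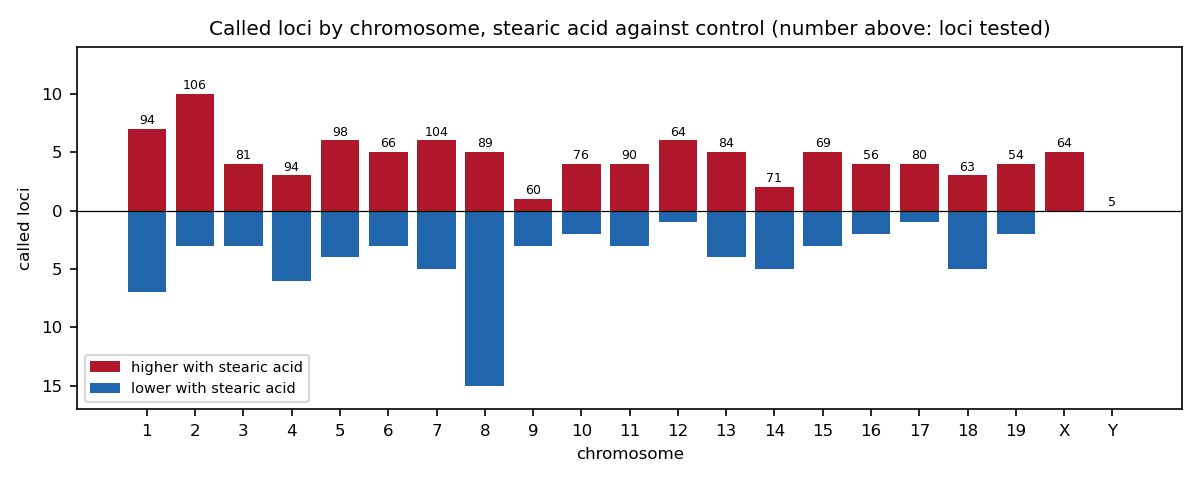
Number of loci of the class called higher (upward, red) or lower (downward, blue) with stearic acid against control on each chromosome, with the number of tested loci printed above each bar. Chromosome 8 has 15 lower and 5 higher of 89 tested, and chromosome X has 5 higher and none lower of 64.

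Called shares also differed by structure. With stearic acid, 9.19% of tested loci of 2 exons were called, 9.97% of those of 3 and 18% of those of 4 or more. By number of transcripts the shares were 7.68% for 1, 13.7% for 2 or 3 and 18.5% for 4 or more. By transcript number the level differed too: the median level of tested loci with 4 or more transcripts was 5.04 log2 CPM, against 3.73 for those with 1. Median levels by exon number were 3.87 log2 CPM for 2 exons, 3.61 for 3 and 4.13 for 4 or more. By level the shares were 7.33% below 4 log2 CPM, 15.5% between 4 and 6 and 13.6% from 6 up. The part of level in the shares by structure was not tested.

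Distance to a coding gene gave another order. With stearic acid, 6.43% of tested loci within 1 kb of a coding gene were called (10 higher, 17 lower), 9.33% of those at 1 to 10 kb, 14.1% of those at 10 to 100 kb and 13.6% of those further away (27 higher, 11 lower). With palmitic acid the shares were 3.57%, 7.09%, 6.53% and 7.86%, with 19 higher and 3 lower in the farthest class. Median levels in these 4 classes were 3.60, 3.804, 3.92 and 4.23 log2 CPM in the same order. Divergent loci within 10 kb were called in 7.30% with stearic acid and in 5.06% with palmitic acid. No class was tested against another.

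Loci beside genes of β-cell identity and of the known responses to fatty acids were counted, with no share over all coding genes to set beside them. Of 155 listed genes, 28 had a locus of the class within 10 kb, 29 loci in all, of which 10 were tested. The α, δ and endothelial cell markers had no locus, and the acinar (1 locus), duct (1), macrophage (1) and fibroblast (2) markers none with enough counts. The same held for the lists of inflammation (3 loci), fatty acid oxidation and storage (1) and sterol synthesis and desaturation (1). Palmitic acid called none of the 10 by edgeR or DESeq2, and 3 had an unadjusted edgeR p under 0.05. Over all lncRNA features tested, palmitic acid called 4.99% by edgeR.

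Stearic acid called 2 of the 10, both lower, beside 10.2% of all lncRNA features tested. The 10 loci are too few to tell their share from that one. XLOC_086082 (Pcsk2os1), divergent from Pcsk2, the convertase that processes proinsulin, had 26.4, 30.1 and 32.3 CPM with palmitic acid, 23.3, 25.5 and 18.9 with stearic acid and 34.4, 47.3 and 50.2 in control (stearic acid log2 fold change -0.98 ± 0.22, edgeR adjusted p = 0.0084). XLOC_124538 (E230016M11Rik), divergent from Gadd45a, a DNA damage and stress response gene, had 28.6, 25.2 and 24.2 CPM with palmitic acid, 15.7, 10.7 and 10.3 with stearic acid and 37.3, 36.5 and 28.6 in control (stearic acid -1.47 ± 0.26, edgeR adjusted p = 0.00108). The stearic acid libraries lay below all others at both loci. The call at XLOC_086082 is lost, just, without control replicate 3 (edgeR adjusted p = 0.0511).

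At XLOC_124538 the difference of stearic from palmitic acid was -1.08 (95% interval -1.62 to -0.54), which did not pass adjustment (edgeR adjusted p = 0.189). The other beta-cell loci tested were XLOC_037987 near Isl1, XLOC_095191 near Slc2a2, the glucose transporter of rodent β cells, and XLOC_136495, which overlaps Ins2, an insulin gene, on the same strand. XLOC_136495 had 6.97, 5.34 and 5.10 CPM with palmitic acid, 6.18, 7.37 and 10.7 with stearic acid and 12.6, 13.2 and 16.7 in control. The control libraries lay highest, but neither acid passed (palmitic acid log2 fold change -1.28 ± 0.38, edgeR adjusted p = 0.0611, stearic acid -0.80 ± 0.38, edgeR adjusted p = 0.201), and its reads cannot be told apart from those of Ins2.

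Of the lists of stress and growth genes, endoplasmic reticulum stress had 5 loci, 2 of them tested. XLOC_106359 near Sesn2, a stress-induced regulator of growth signalling, had 42.2, 49.2 and 50.6 CPM with palmitic acid, 60.9, 39.5 and 49.0 with stearic acid and 39.7, 43.4 and 49.4 in control, and the groups overlapped. The apoptosis and p53 list had 4 loci, 3 of them tested, and the cell-cycle list 3 with 1 tested. Within 50 kb of a listed gene there were 75 loci, 31 of them tested, of which stearic acid called 3 higher and 2 lower by edgeR. Palmitic acid called none of the 31 by edgeR and 1 by DESeq2, and 6 had an unadjusted edgeR p under 0.05. Over all features edgeR called 10.2% with stearic acid and 4.99% with palmitic acid. No difference of the 31 loci from these shares was tested.

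In the authors' deposited tables of changed transcripts, 38 of the 81 transcripts listed for palmitic acid belong to the class (26 higher, 12 lower), at 37 loci. Of these 37 loci, 20 were called here. The deposited lists are per transcript, and all their transcripts of the class changed over 2-fold. The calls here are per locus, from another test and without a fold limit, so the lists need not match. The authors' deposited table for stearic acid lists 189 transcripts, 90 of the class (45 higher, 45 lower) at 82 loci, 59 of which were called here. The authors' deposited table for stearic against palmitic acid lists 17 transcripts, 6 of the class (3 higher, 3 lower), and none of their loci were called here.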

How the data were processed

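Total RNA of β-TC6 cells was depleted of ribosomal RNA and sequenced from a directional kit, per the labels' protocols. The submitters' processing notes name bcl2fastq 2.17.1.14, Trimmomatic 0.30, HISAT2 2.0.1, HTSeq 0.6.1, DESeq and the build mm10. No source used here names the strand setting of the counting or the assembler. The authors deposited 1 table of lncRNA transcripts with expected counts and FPKM per library. Of the expected counts, 77.7% were whole numbers, and all were rounded after summing. The authors also deposited tables of changed transcripts with log2 fold changes and p-values. In these tables, 36 columns of per-sample values were not used.

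Members and gene lists were chosen with earlier results of these data known. Transcripts of the class were summed per locus, and other rows of the same gene identifier were kept apart. Counts were tested with edgeR 4.0.16 (quasi-likelihood, TMM, filterByExpr) over all 9 libraries and 3129 features, with limma 3.58.1 in R 4.3.3, and with the DESeq2 1.42.0 Wald test as an alternative. Shares of counts were compared with an exact permutation test. The comparisons of the acids with control share the control libraries, so their values stand side by side and were not correlated. Overlaps and distances use GENCODE M21. The deposited FPKM values were used for levels per length and for 1 alternative of the share of counts. Floors of 3 counts cover counting error only, while the 95% intervals of log2 fold changes come from the edgeR fit and include the spread between libraries.

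Loci were named by rule: per comparison, the 8 most increased and 8 most decreased called loci at or above the median level of the called loci, the 5 called loci of highest level, the 5 of smallest adjusted p among those called with both acids, and loci within 10 kb of a listed gene. Also named were the 6 with most control counts, the 3 with most transcripts, most exons or longest span, and the loci of the 3 largest clusters.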

Additional observations from a re-analysis of the deposited data

How the results depend on the processing

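With palmitic acid against control, 90 called loci became 6 when transcripts were tested singly, 26 at an adjusted p under 0.01, 47 with a fold over 2 required, and 44 to 131 without 1 library. With stearic acid against control, 170 became 26, 81 and 106 under the same settings and 108 to 173 without 1 library. For stearic against palmitic acid, 0 by edgeR became 2 with DESeq2, 12 with no filter on low counts, 1 with only the libraries of both acids, and 0 to 1 without 1 library.

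DESeq2 size factors, library size alone, the DESeq2 Wald test, a minimum of 10 counts, only the libraries of the groups compared, all rows of a gene identifier and leaving out the most abundant transcript kept the palmitic acid count between 66 and 125 and the stearic acid count between 149 and 208. The replicate numbers do not pair the libraries (same-number correlations -0.064 to 0.058), and a replicate block called 83 with palmitic acid, 166 with stearic acid and 0 between the acids.

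The difference in share of counts between palmitic acid and control was 0.925 points and turned to -0.51 with summed FPKM, which rests mostly on 1 locus, and was 0.597 to 1.31 without 1 library. That between stearic acid and control was 0.568 to 1.78 without 1 library. That between stearic and palmitic acid, 0.208, turned to -0.753 without the most abundant transcript and was -0.358 to 0.856 without 1 library. A replicate block gave exact permutation p-values of 0.25, 0.25 and 1.0, where 0.25 is the smallest that such a block allows. The cause of these changes was not tested. Clusters at 10 kb held 22.18% and at 100 kb 55.16% of loci, against 41.35% at 50 kb, and 75 loci lay within 50 kb of a listed gene, against 29 within 10 kb. Depth limits what can be said of the 3022 loci that the filter on low counts left untested, and no result is given for their change. With no such filter, 99 loci were called with palmitic acid and 199 with stearic acid. Below 4 log2 CPM, 3.3% of tested loci were called with palmitic acid and 7.33% with stearic acid.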
